A study of Caenorhabditis elegans with 4 samples.

Results

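The chemoreceptor genes of the nematode Caenorhabditis elegans were followed in 4 mRNA-seq libraries of whole early adults that had passed through a prolonged early-life starvation. Members were all genes whose sequence name mapped, in the WBcel235 annotation, to a symbol of 20 serpentine receptor families (sra, srab, srb, srbc, srd, sre, srg, srh, sri, srj, srr, srsx, srt, sru, srv, srw, srx, srxa, srz and str) followed by a number. They numbered 31 of the 13758 rows of the table, and the annotation names 1302 genes of these families in all. The level of a gene played no part in the choice, although a row needs enough reads to stand in such a table.

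The mutant group was the strain GG14, genotype fasn-1(g14), and the comparison group was N2 (Bristol), the wild type. The gene fasn-1 encodes fatty acid synthase. Each genotype was represented by 1 strain and by 2 biological replicates, numbered 3 and 4. Both genotypes underwent the same early-life starvation, in which eggs were held for 8 days at 20 °C in S-basal buffer without food. About 750 live animals were then fed HT115 bacteria with an empty vector for about 68 hours, until eggs appeared. Carbenicillin at 25 µg/ml, IPTG at 1 mM and 4 generations fed were recorded alike for both genotypes. There was no fed group among the libraries used here, so each comparison is between genotypes after starvation.

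Serpentine chemoreceptors are G protein-coupled receptors that span the membrane repeatedly and sit mainly on the ciliated endings of sensory neurons, where they detect odorants, bitter compounds and pheromones. Binding of a ligand activates G alpha proteins, which act through cyclic GMP and its gated channels or through TRPV channels. A given receptor is often made in very few neurons, so most receptor transcripts are rare in RNA from a whole animal. The families are grouped by sequence into the Str, Sra and Srg superfamilies, with several families, among them srr, srsx, srw and srz, standing outside them.

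Reads recovered from the CPM values and summed over the 13758 rows numbered 14643426 and 15889424 in the mutant and 15023519 and 13960509 in the wild type. Values are CPM, read counts scaled to library size as the authors normalized them, and 1 read was worth between 0.0628 and 0.0676 CPM. A level of 3 reads, used here as the floor, therefore stood at 0.188 to 0.203 CPM. The transcript of the mutated gene, fasn-1, stood at 353 and 285 CPM in the mutant and at 369 and 410 CPM in wild type (limma, adjusted p = 0.1196). Its level therefore did not check the genotype labels. Markers of intestine, muscle, epidermis, yolk, oocyte and amphid sheath glia were all detected. Several moved between the genotypes. Pharyngeal muscle markers summed to 204 and 97.3 CPM in the mutant and 807 and 830 CPM in wild type, and sperm markers to 8.92 and 13.9 CPM in the mutant and 0.691 and 2.29 CPM in wild type. Yolk markers summed to 59631 and 57613 CPM in the mutant and 33447 and 36739 CPM in wild type. Of single markers the collagen gene col-19, the gut esterase gene ges-1 and the vitellogenin gene vit-6 rose, and the collagen gene dpy-7 and the muscle myosin gene myo-3 fell. The other markers of intestine, body wall muscle and yolk did not pass. Their log2 changes were 0.29 for elt-2, -0.0047 for ifb-2, 0.15 for unc-54 and 0.68 for vit-2. The part of these differences in the results on chemoreceptor genes was not tested.

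The 31 genes came from 16 of the 20 families, and srbc, srg, srt and srxa had no member among the rows. Coverage was uneven. In the small srr family 3 of 9 annotated genes had a row (33.3%), against 4 of 220 in srh (1.82%), 5 of 193 in str (2.59%) and 2 of 109 in srw (1.83%). By superfamily the rows were 15 of 580 annotated genes in Str, 5 of 124 in Sra, 4 of 309 in Srg and 7 of 289 in the families outside them. Chromosome V, which carries 886 of the 1302 annotated genes (68.05%), held 13 of the 31 rows (41.9%), and chromosome II held 8 rows (25.8%) with 169 annotated genes (12.98%).

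These transcripts were scarce. Their mean over the 4 libraries ranged from 0.457 to 22.8 CPM with a median of 1.06 CPM, where the median over all rows was 15.1 CPM. Only 5 members averaged at least 5 CPM. All 31 together took 1248 and 1258 reads in the mutant libraries and 1665 and 1555 reads in the wild-type libraries. Their summed level was 84.3 and 81.5 CPM in the mutant and 104.6 and 104.9 CPM in wild type, and sri-40, srr-4 and srw-85 made up 44.95% and 50.08% of it in the mutant and 52.07% and 51.96% in wild type. Without those 3 genes the sums were 46.4 and 40.7 CPM in the mutant and 50.1 and 50.4 CPM in wild type. The net difference between the groups thus lay largely in 3 genes, of which srw-85 and srr-4 were lower and sri-40 higher in the mutant. The other 28 genes still summed lower in both mutant libraries.

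**Figure D1:**
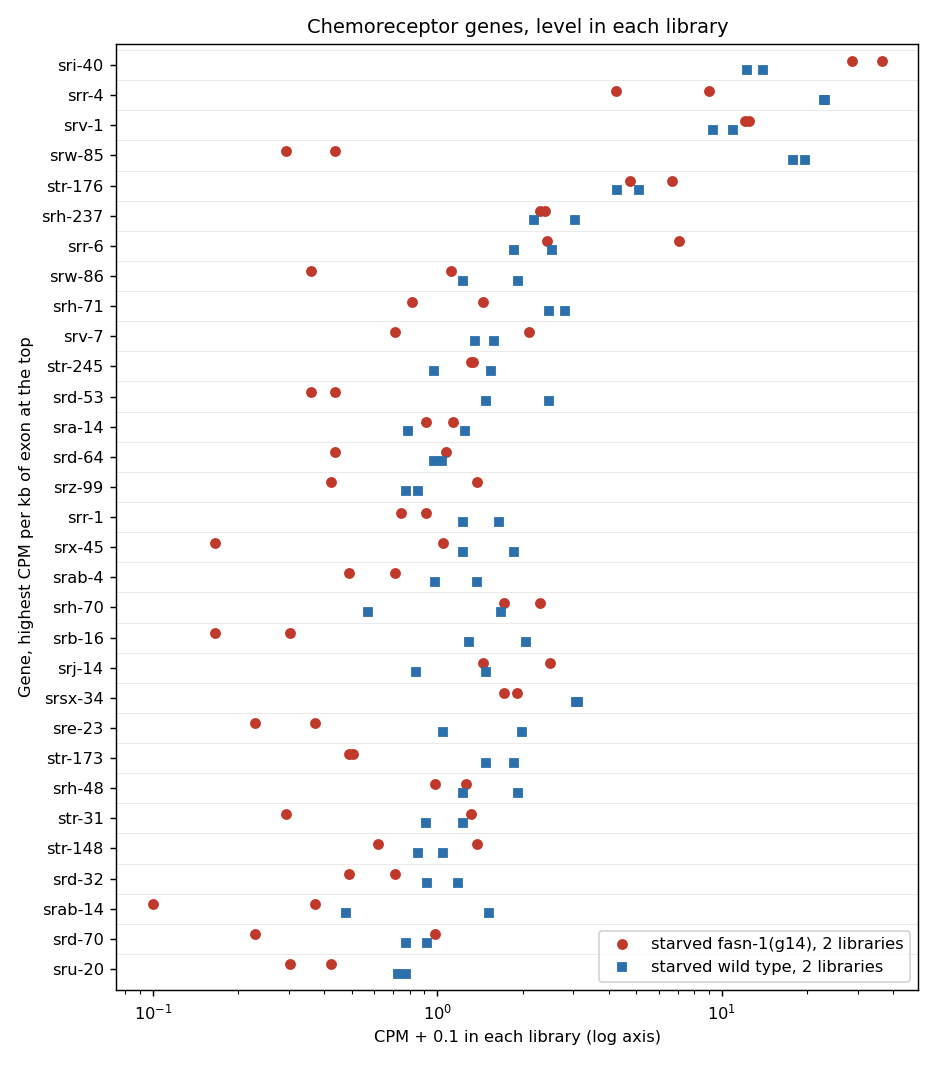
Level of each of the 31 chemoreceptor genes in CPM + 0.1 on a log axis, with circles for the 2 starved fasn-1(g14) libraries and squares for the 2 starved wild-type libraries, ordered by mean CPM per kb of exon. Both squares of srw-85 lie far to the right of its circles, and most genes below the top 7 lie near 1 CPM.

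Per kb of exon, the order from the top was sri-40 (18.7 CPM per kb), srr-4 (10.2), srv-1 (8.21), srw-85 (6.63), str-176 (3.08), srh-237 (2.31), srr-6 (2.13), srw-86 (1.77), srh-71 (1.70) and srv-7 (1.05). These are means over both genotypes. On the same scale sri-40 stood above 59.2% of all rows and srr-4 above 49.03%, whereas the other 21 members lay between 0.248 and 1.04 CPM per kb. Of the 10 highest, 2 fell in the mutant, 1 rose and 7 did not pass the test, where over all tested genes 10.7% fell and 4.41% rose.

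The test was limma on log2(CPM + 1), fitted to the 12977 genes that reached 1 CPM in 2 or more libraries and adjusted by the Benjamini-Hochberg method over all of them, with a threshold of 0.05. Of the 31 members 22 were tested. Among these srw-85, srr-4, srb-16, srd-53 and str-173 fell, sri-40 rose and 16 did not pass. Over all tested genes 10.7% fell and 4.41% rose, and among tested genes with a mean under 5 CPM 15% fell and 3.15% rose, where 3 of 17 such members fell and 0 rose. The median log2 change of the tested members was -0.28, against 0.00187 over all tested genes and -0.33 over tested genes under 5 CPM, and with quantile normalization it was 0.02 against 0.0377 over all tested genes. The log2 change was below 0 in 14 of the 22, and in 49.7% of all tested genes. With edgeR on recovered reads 4 members fell and 1 rose, where 7.04% of all genes fell and 3.38% rose. With DESeq2 3 fell and 1 rose (8.15% and 3.91% of all genes), and with limma and no filter 6 of 31 fell and 1 rose (10.5% and 4.27% of all genes). RNA was taken from whole animals, so fewer cells of a type and less RNA per cell cannot be told apart in any of these values.

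The filter itself bears on these counts. Of the tested members, 6 reached 1 CPM in the wild-type libraries only: srw-85, srb-16, srd-53, str-173, srx-45 and srr-1. They were tested because they were high in wild type, so that their lower mutant values followed in part from the choice, and over all genes of that kind 38.8% fell. Of the 16 members that reached 1 CPM in both groups, srr-4 fell, sri-40 rose and 14 were not called. Their median log2 change was -0.05, and over all such genes 9.55% fell and 4.08% rose. No member reached the filter in the mutant only.

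The counts also changed when a single library was left out. Without wild type replicate 3, and likewise without wild type replicate 4, the genes that fell were srw-85 and srr-4. Without mutant replicate 3 there were 8, the same 5 genes plus srh-71, srw-86 and srx-45. Rises numbered 2 without mutant replicate 3 (sri-40 and srj-14) and 2 without mutant replicate 4 (sri-40 and srr-6). Such a fit leaves 1 genotype with a lone library, whose spread is taken from the other genotype. The share of all tested genes called in these fits is not given here. A change in the member counts therefore cannot be told from a change in calls over all genes.

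**Figure D2:**
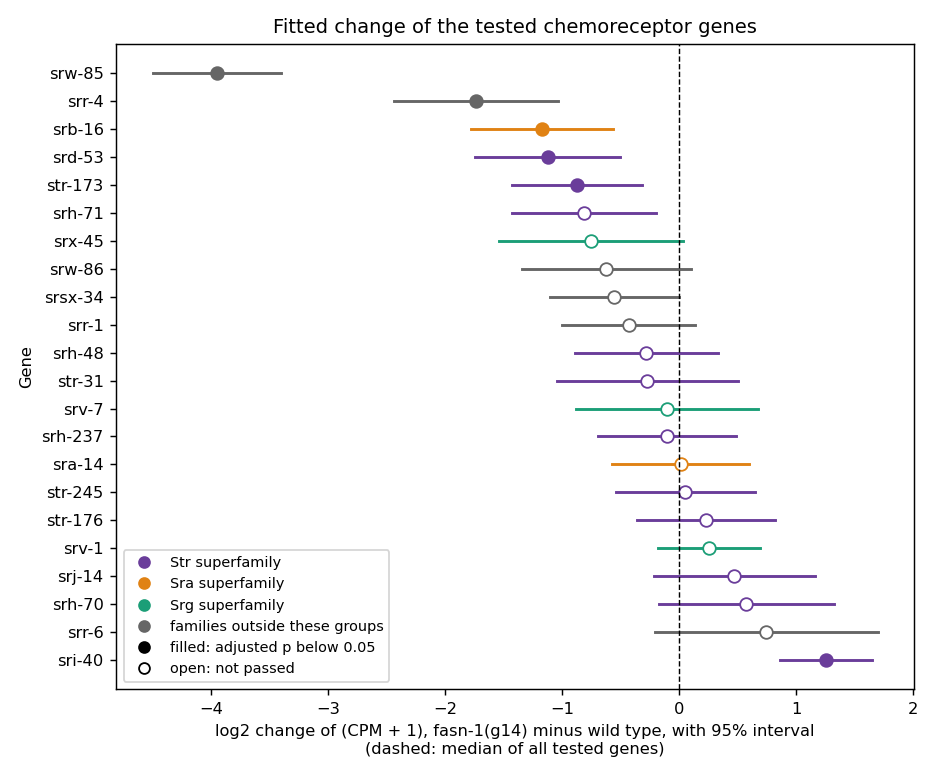
Fitted log2 change of (CPM + 1), starved fasn-1(g14) minus starved wild type, with its 95% interval for the 22 tested chemoreceptor genes, coloured by superfamily. Filled points passed the test: srw-85, srr-4, srb-16, srd-53 and str-173 to the left of 0 and sri-40 to the right.

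Among the families outside the superfamilies, the srw family held the gene with the largest fitted fall of all 1386 genes that fell. This gene, srw-85 (C25F9.1, WBGene00005832), lies on chromosome V from 19429387 to 19431136 on the minus strand and has 4 exons. It was counted with 5 and 3 reads in mutant replicates 3 and 4, against 281 and 290 reads in wild type replicates 3 and 4. As levels these were 0.338 and 0.194 CPM in the mutant and 17.7 and 19.6 CPM in wild type, so the groups lay far apart and mutant replicate 4 was at the floor. The ratio of mean CPM was 69.9-fold lower in the mutant, and the pooled reads gave 70.2-fold, with an exact 95% interval of 35.4 to 163.4 that covers counting error only. The log2 change was -3.95 (SE 0.23; limma, adjusted p = 7.14e-04), and the call was kept in all 13 alternative settings.

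The other srw member, srw-86 (C25F9.7), lies 28.7 kb from srw-85 on the same strand. It had 1.01 and 0.259 CPM in the mutant and 1.13 and 1.82 CPM in wild type. Both mutant values were lower, with mutant replicate 3 close to wild type replicate 3, and the change did not pass (log2 change -0.62, SE 0.31; limma, adjusted p = 0.2055).

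None of the tested genes near srw-85 was called. In the 50 kb on either side the table held 20 further rows, of which 15 were tested, with 0 calls in either direction by limma, edgeR or DESeq2 and log2 changes between -1.03 and 0.60. At an unadjusted limma p below 0.05, 1 was lower and 1 higher in the mutant. The lowest of them was C25F9.11, which lies 1.31 kb away on the same strand and had 4.33 and 1.36 CPM in the mutant and 5.78 and 6.75 CPM in wild type (limma, adjusted p = 0.1087). The next gene on the other side with a row, C25F9.9, was too low to be tested, at 0.338 and 0.583 CPM in the mutant and 1.63 and 0.944 CPM in wild type. These neighbours were looked at after the value of srw-85 was seen.

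**Figure D3:**
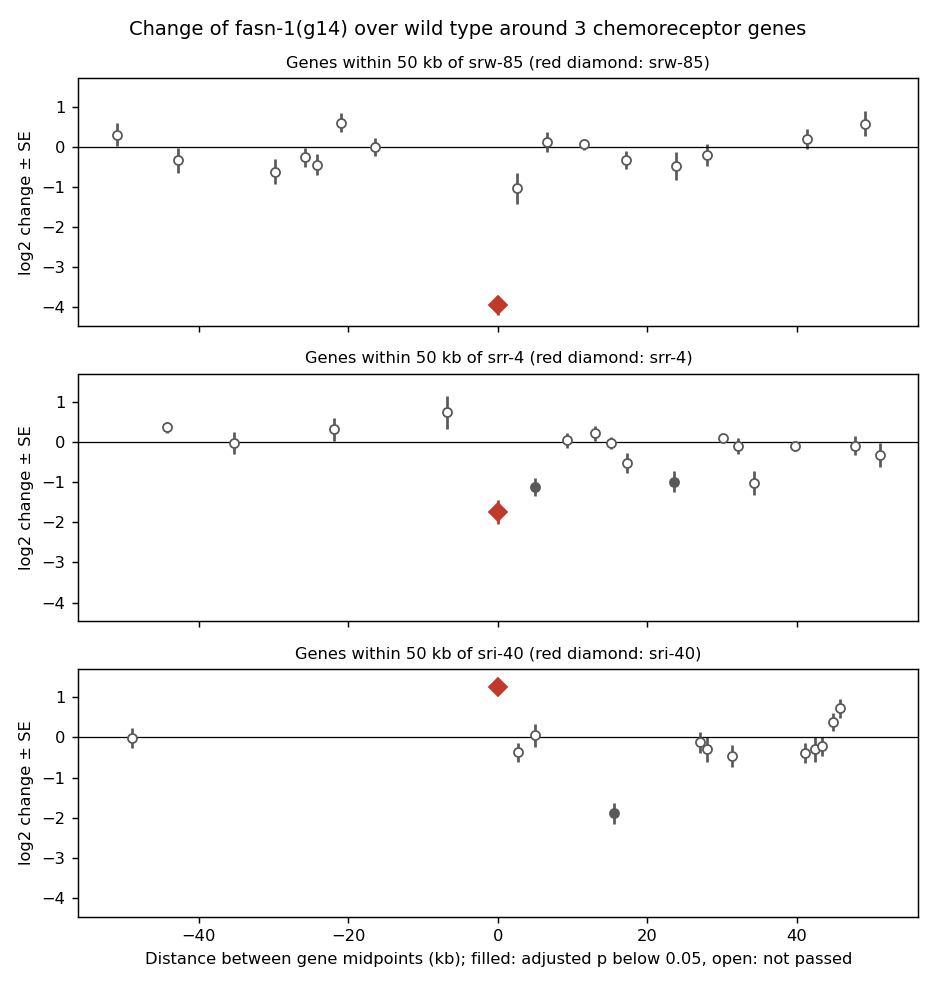
Log2 change, starved fasn-1(g14) minus starved wild type, with its SE for each tested gene within 50 kb of srw-85, srr-4 and sri-40, against the distance between gene midpoints in kb. The diamonds are the chemoreceptor genes, and around srw-85 every other point is open, meaning not passed.

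Of the srr family, srr-4 fell while srr-1 and srr-6 did not pass. The gene srr-4 (K11D12.3, WBGene00005655; chromosome V, 5019224 to 5022363, plus strand) was counted with 132 and 64 reads in the mutant and 365 and 338 reads in wild type. Its levels were 8.92 and 4.14 CPM in the mutant and 22.9 and 22.8 CPM in wild type, a close pair in wild type, with both mutant libraries lower and well apart from each other. The fall was 3.50-fold in mean CPM, with a log2 change of -1.74 (SE 0.30; limma, adjusted p = 0.0157), and was called in all 13 alternative settings.

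The gene srr-6 (C13D9.1) lies 4.005 kb before srr-4 on the same strand. It had 6.96 and 2.33 CPM in the mutant and 1.76 and 2.43 CPM in wild type. Only mutant replicate 3 stood apart, and mutant replicate 4 lay between the wild-type values. Its log2 change of 0.74 (SE 0.41) did not pass (limma, adjusted p = 0.2475), though without mutant replicate 4 it was 1.37 and passed. The third member, srr-1, had 0.811 and 0.648 CPM in the mutant and 1.13 and 1.55 CPM in wild type, groups that did not overlap but were not called (limma, adjusted p = 0.2594). On the other side of srr-4, 1.34 kb away, cpt-4, a gene of the carnitine palmitoyltransferase family, fell with 11.6 and 8.03 CPM in the mutant against 20.1 and 24.5 CPM in wild type (limma, adjusted p = 0.0207).

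The remaining families of this kind had 1 member each. The srsx gene srsx-34 had 1.62 and 1.81 CPM in the mutant and 3.02 and 2.97 CPM in wild type. The replicates of each group were close and the groups did not overlap, yet the change did not pass (log2 change -0.56, SE 0.24; limma, adjusted p = 0.1492). The srz gene srz-99 was below the filter, at 1.28 and 0.324 CPM in the mutant and 0.754 and 0.675 CPM in wild type, with the mutant values on both sides of the wild-type ones.

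In the Str superfamily, sri-40 rose and was the most abundant member in the mutant. It is Y27F2A.3 (WBGene00005552), on chromosome II from 3177963 to 3180478 on the plus strand, and its exons overlap no exon of another gene. Pooled reads numbered 987 in the mutant and 401 in wild type. The levels were 28.7 and 36.5 CPM in the mutant and 13.9 and 12.1 CPM in wild type, so both mutant libraries lay well above both wild-type ones. Its mean was 2.502-fold higher in the mutant (log2 change 1.25, SE 0.17; limma, adjusted p = 0.00927), and the rise was called in all 13 alternative settings.

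No tested gene within 50 kb of sri-40 rose by limma, edgeR or DESeq2, with 1 higher at an unadjusted limma p below 0.05. The closest row, Y27F2A.6, adjoins sri-40 on the opposite strand and had 0.879 and 1.10 CPM in the mutant and 1.45 and 1.69 CPM in wild type (limma, adjusted p = 0.3263). Of the 12 other tested rows 1 fell, the receptor guanylyl cyclase gene gcy-15, with 1.62 and 0.971 CPM in the mutant and 7.54 and 7.35 CPM in wild type (log2 change -1.89; limma, adjusted p = 0.00911). The chemoreceptor gene srh-71 lies 53.1 kb from sri-40, and its values were on the other side, at 1.35 and 0.712 CPM in the mutant and 2.702 and 2.36 CPM in wild type. That difference, 2.45-fold in the mean with groups that did not overlap, did not pass (log2 change -0.81, SE 0.27; limma, adjusted p = 0.0777) except without mutant replicate 3.

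The genes that fell in this superfamily were scarce. The gene srd-53 (F13G3.2; chromosome I, 7294038 to 7295794, plus strand) had 0.338 and 0.259 CPM in the mutant and 1.38 and 2.36 CPM in wild type. These values came from 5 and 4 reads in the mutant and 22 and 35 reads in wild type, 6.27-fold apart in the mean (log2 change -1.12, SE 0.27; limma, adjusted p = 0.0333). The call was lost with quantile normalization, with DESeq2 and when either wild-type library was left out, and limma, edgeR and DESeq2 gave adjusted p between 0.00199 and 0.3175 over the alternatives. The gene directly before it on the same strand, ztf-2, for a zinc finger protein, fell as well, at 2.03 and 1.36 CPM in the mutant against 5.59 and 7.76 CPM in wild type (limma, adjusted p = 0.0172).

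The gene str-173 (Y17G9A.1; chromosome IV, 4861773 to 4864149, plus strand) had 0.405 and 0.389 CPM in the mutant and 1.38 and 1.75 CPM in wild type. It had 6 reads in each mutant library against 22 and 26 in wild type, and the groups did not overlap. Its log2 change of -0.87 (SE 0.24) passed narrowly (limma, adjusted p = 0.0481) and passed in 5 of 12 alternative settings.

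Other members of this superfamily were not called. The gene str-176 had 4.66 and 6.60 CPM in the mutant and 5.03 and 4.18 CPM in wild type (log2 change 0.23, SE 0.25; limma, adjusted p = 0.5643), with overlapping groups. For srh-237 the levels were 2.298 and 2.202 CPM in the mutant and 2.95 and 2.09 CPM in wild type, again overlapping, with a 95% interval of the log2 change from -0.69 to 0.48. The values of srh-70 were higher in both mutant libraries, at 1.62 and 2.202 CPM against 1.57 and 0.472 CPM in wild type, but mutant replicate 3 lay close to wild type replicate 3 and the change did not pass (limma, adjusted p = 0.256). The gene srj-14 had 1.35 and 2.396 CPM in the mutant and 1.38 and 0.742 CPM in wild type, and srh-48 had 0.879 and 1.17 CPM in the mutant and 1.13 and 1.82 CPM in wild type. Both pairs of groups overlapped.

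The other Str members were str-31, str-245, str-148, srd-32, srd-64 and srd-70, none of them above 1.45 CPM in any library. Of these str-31, at 1.22 and 0.194 CPM in the mutant and 1.13 and 0.809 CPM in wild type, showed how far the mutant libraries could differ from each other. The gene str-245 was even, at 1.22 and 1.23 CPM in the mutant and 1.45 and 0.877 CPM in wild type. Among the 4 below the filter, only srd-32 had groups that did not overlap, with 0.608 and 0.389 CPM in the mutant and 0.817 and 1.08 CPM in wild type.

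In the Sra superfamily, srb-16 fell. This gene (F58A6.6, WBGene00019025; chromosome II, 5148530 to 5150929, minus strand) was counted with 3 reads and 1 read in the mutant and 19 and 29 reads in wild type. The levels were 0.203 and 0.0648 CPM in the mutant and 1.19 and 1.96 CPM in wild type, with both mutant libraries at or below the floor. The pooled reads were 11.8-fold lower in the mutant, with an exact 95% interval of 4.32 to 45.1 that covers counting error only. The log2 change was -1.17 (SE 0.26; limma, adjusted p = 0.0288), and the call was lost without wild type replicate 3 (limma, adjusted p = 0.0732) and without wild type replicate 4 (0.2654), within a range of 9.88e-04 to 0.2654 over the alternatives.

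The neighbour of srb-16 on the same strand, 5.77 kb away, was the sperm gene msp-45, which rose with 3.58 and 4.99 CPM in the mutant against 0.754 and 0.742 CPM in wild type (limma, adjusted p = 0.014). Across the 6 called chemoreceptor genes, 11 of the 12 nearest rows on either side were tested, of which cpt-4 and ztf-2 fell and msp-45 rose. Around all 31 members there were 52 tested neighbours that were not members themselves, each counted once, of which 7 fell (13.5%) and 2 rose (3.85%), near the 10.7% and 4.41% of all tested genes.

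Of the other Sra members, sra-14 was level, with 0.811 and 1.04 CPM in the mutant and 0.691 and 1.15 CPM in wild type. The remaining 3 were below the filter, and all 3 had groups that did not overlap, with the mutant lower. For sre-23 the reads were 4 and 2 in the mutant and 30 and 14 in wild type, a pooled ratio 7.21-fold lower in the mutant (exact 95% interval 3.06 to 20.7, counting error only). With no filter sre-23 was tested and fell, the 1 member added in that setting. The gene srab-14 had 4 and 0 reads in the mutant and 6 and 21 reads in wild type, and srab-4 had 9 and 6 reads in the mutant and 14 and 19 reads in wild type.

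The Srg superfamily had 0 calls among 3 tested members, by limma, edgeR or DESeq2, and 0 at an unadjusted limma p under 0.05. Its most abundant member, srv-1, had 12.4 and 11.9 CPM in the mutant and 10.9 and 9.24 CPM in wild type, slightly higher in both mutant libraries (log2 change 0.25, SE 0.19; limma, adjusted p = 0.3888). The gene srv-7 had 0.608 and 2.01 CPM in the mutant and 1.26 and 1.48 CPM in wild type, with the mutant values on both sides. The srx gene srx-45 was at 0.946 and 0.0648 CPM in the mutant and 1.13 and 1.75 CPM in wild type, with a single read in mutant replicate 4. It did not pass (limma, adjusted p = 0.1676) except without mutant replicate 3. The gene sru-20, below the filter, had 3 and 5 reads in the mutant and 10 reads in each wild-type library.

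Over all 31 rows the mutant lay below wild type without overlap in 15 genes and above it in 3, and the groups overlapped in 13. Over all rows of the table the mutant was lower without overlap in 32.7% and higher in 30.9%. For members under 5 CPM the counts were 13 lower and 1 higher of 26, where over all rows under 5 CPM 47% were lower and 17.9% higher. Rows under 5 CPM as a whole thus also lay lower in the mutant more often than higher.

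The lowest counts were then set against those of all rows. In 8 members a library had 3 reads or fewer, 9 values in all, and each of these values was from a mutant library. Among all rows under 5 CPM, 5.29% of mutant values and 3.50% of wild-type values were that low, so that 60.2% of such values were from mutant libraries. Mutant replicate 4 was below mutant replicate 3 in 20 of 31 members and above it in 11, where over all rows replicate 4 was lower in 52.2%. Measured against the wild-type mean on the log2(CPM + 1) scale, tested members had a median of -0.30 in the mutant library numbered 3 and of -0.34 in the one numbered 4. The values of srw-85 were alike in the mutant libraries, at -3.87 and -4.04, whereas srr-4 stood at -1.27 in replicate 3 and -2.21 in replicate 4.

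**Figure D4:**
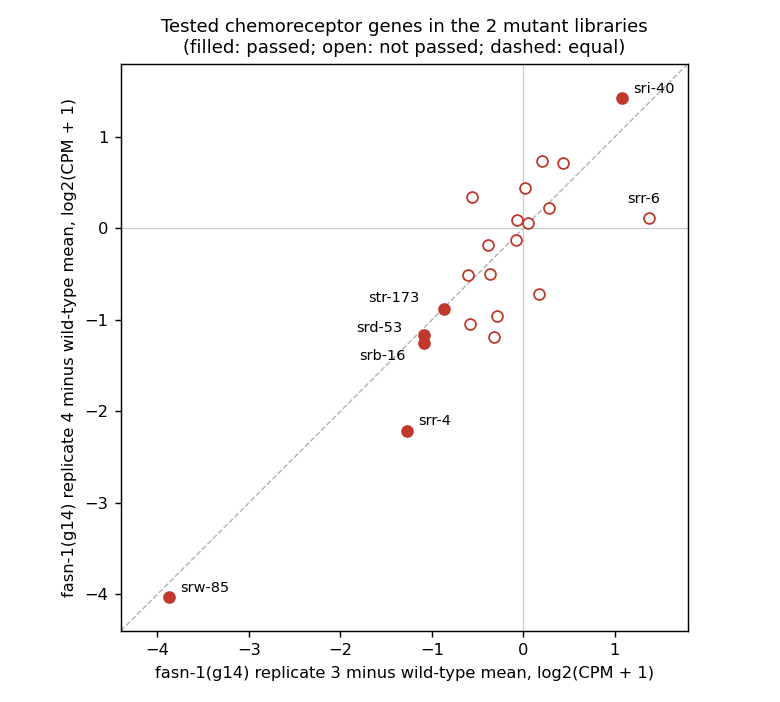
Difference of each mutant library from the wild-type mean in log2(CPM + 1) for the 22 tested chemoreceptor genes, with fasn-1(g14) replicate 3 on the x axis and replicate 4 on the y axis. The called genes, filled and named, lie in the same direction in both mutant libraries, and srr-6 is high in replicate 3 only.

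Strand is not recorded by the library kit, and where genes on opposite strands overlap their reads cannot be told apart. Exons of 10 members overlapped an exon of another annotated gene, and 21 did not. Among the called genes, srd-53 shared 120 bp with F13G3.12 on the same strand and str-173 shared short stretches with a tRNA gene and a noncoding RNA gene, while srw-85, srr-4, srb-16 and sri-40 had no such overlap. Counting members with no overlap, 3 fell and 1 rose of 14 tested, where over all tested genes 10.7% fell and 4.41% rose. The largest overlaps were in srab-14, with 38.5% of its exon length opposite spi-1, and in srh-48, with 28.95% opposite a pseudogene.

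The genes through which chemoreceptors act were also measured, on lists drawn from general knowledge. These lists were chosen with earlier results of these data known, so the shares that follow describe the lists and are not a test of them. In the list of chemosensory signalling, 6 of 22 tested genes fell (27.3%, against 10.7% of all tested genes) and 0 rose, with a median log2 change of -0.67. The falls in this list numbered 3 with edgeR, with DESeq2 and with quantile normalization, 1 when wild type replicate 3 was left out, 0 when wild type replicate 4 was, and 14 when mutant replicate 3 was. The G alpha genes gpa-3 and odr-3 fell, gpa-3 to 0.960 ± 0.0758 CPM in the mutant against 4.34 ± 0.448 CPM in wild type, and odr-3 to 1.43 ± 0.745 CPM in the mutant against 4.48 ± 0.915 CPM in wild type (SD, n = 2 each; limma, adjusted p = 0.0148 for gpa-3 and 0.0389 for odr-3). The receptor guanylyl cyclase gene daf-11, the RGS protein gene rgs-3 and the calmodulin kinase gene cmk-1 fell too, and their mean CPM was 4.49-fold, 3.01-fold and 3.67-fold lower in the mutant. The other tested G alpha genes of this list did not pass. Their log2 changes were -0.24 for gpa-1, -1.0035 for gpa-2, -0.55 for gpa-13 and -0.29 for gpa-15. Those of gpa-4, gpa-9 and gpa-16 were positive, at 0.03, 0.18 and 0.26. The cyclic GMP-gated channel gene tax-2 and the TRPV channel genes osm-9 and ocr-2 did not pass, with log2 changes of -0.74, -1.09 and -0.87. The cyclic GMP-dependent kinase gene egl-4 was at 412 ± 21.4 CPM in the mutant and 393 ± 8.96 CPM in wild type.

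In the list of receptor trafficking and control of receptor expression, 7 of 16 genes fell (43.75%) and 0 rose (median -0.45). Over all tested genes 10.7% fell and 4.41% rose. The falls in this list numbered 5 with edgeR, 6 with DESeq2 and 5 with quantile normalization. Of all tested genes 7.04% fell with edgeR and 8.15% with DESeq2. The genes odr-4 and odr-8, whose products carry odorant receptors towards the cilium, were at 54.3 ± 2.66 and 95.8 ± 9.55 CPM in the mutant and at 55.4 ± 1.63 and 86.7 ± 3.097 CPM in wild type, and neither passed. The falls included the innexin gene inx-19, the calcium channel genes unc-36 and unc-2 and the CaM kinase II gene unc-43, which act in the choice of receptor between the paired AWC neurons, with log2 changes of -1.16, -1.23, -1.26 and -0.66. The claudin-like gene nsy-4 of that pathway fell as well, while its kinase genes nsy-1 and sek-1 and its adaptor gene tir-1 did not pass, with log2 changes of 0.08, 0.25 and -0.21. Among transcription factors of sensory neurons daf-19 and lim-4 fell, 2 of 17 or 11.8%, a share near that of all tested genes, and fozi-1 rose. The median log2 change of this list was -0.61, against 0.00187 over all tested genes. At an unadjusted limma p below 0.05, 8 of the 17 were lower and 1 was higher in the mutant. The list of other sensory receptors had 2 falls among 8 tested (25%), npr-2 and tyra-3, 1 with edgeR and with DESeq2 and 0 with quantile normalization. The pheromone receptor gene daf-38 had 1.28 and 0.971 CPM in the mutant and 1.82 and 3.91 CPM in wild type and did not pass.

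Falls were also counted among genes of the cilium and of neurons in general, where over all tested genes 10.7% fell and 4.41% rose. Of 31 tested genes of ciliary transport 11 fell (35.5%) and 0 rose (median -0.96), led by dyf-3, che-3, che-11 and che-2. They numbered 7 with edgeR, 8 with DESeq2 and 5 with quantile normalization. Of 24 broadly neuronal genes 16 fell (66.7%) and 0 rose (median -0.99). Among the falls were pgal-1, sbt-1, egl-3 and egl-21, which act in neuropeptide processing, with log2 changes of -1.27, -1.40, -1.22 and -0.98. The other 8 of the 24 genes did not pass, among them the synaptobrevin gene snb-1 at -0.04 and unc-11 at 0.14. The 24 genes' summed level was 1199 and 969 CPM in the mutant and 1585 and 1674 CPM in wild type. The amphid sheath glia genes vap-1 and kcc-3 fell, fig-1 did not pass, and the 3 together stood at 10.7 and 12.8 CPM in the mutant and 23.1 and 27.2 CPM in wild type. The part of these differences in the falls of chemoreceptor genes was not tested.

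In the 5 lists without a rise by limma, edgeR and DESeq2 also called 0 rises, and 2 of those lists held 1 gene each that was higher at an unadjusted limma p below 0.05. The counts of falls changed with the library left out, in fits that leave 1 genotype with a lone library. The share of all tested genes called in those fits is not given here. A change in the list counts therefore cannot be told from a change in calls over all genes. The ciliary median, -0.96 with all libraries, was -1.05 and -0.94 without wild type replicates 3 and 4 in turn. Without mutant replicates 3 and 4 in turn it was -1.33 and -0.61. Over the 6 lists 44 genes fell, but 15 when wild type replicate 3 was left out, 7 when wild type replicate 4 was, and 92 when mutant replicate 3 was. The 11 ciliary falls became 0 when either wild-type library was left out, and numbered 30 without mutant replicate 3. The 6 list medians stayed below 0 with CPM lacking the normalization factors, with quantile normalization, with edgeR and with DESeq2, and the chemoreceptor median did so in these settings except with quantile normalization.

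**Figure D5:**
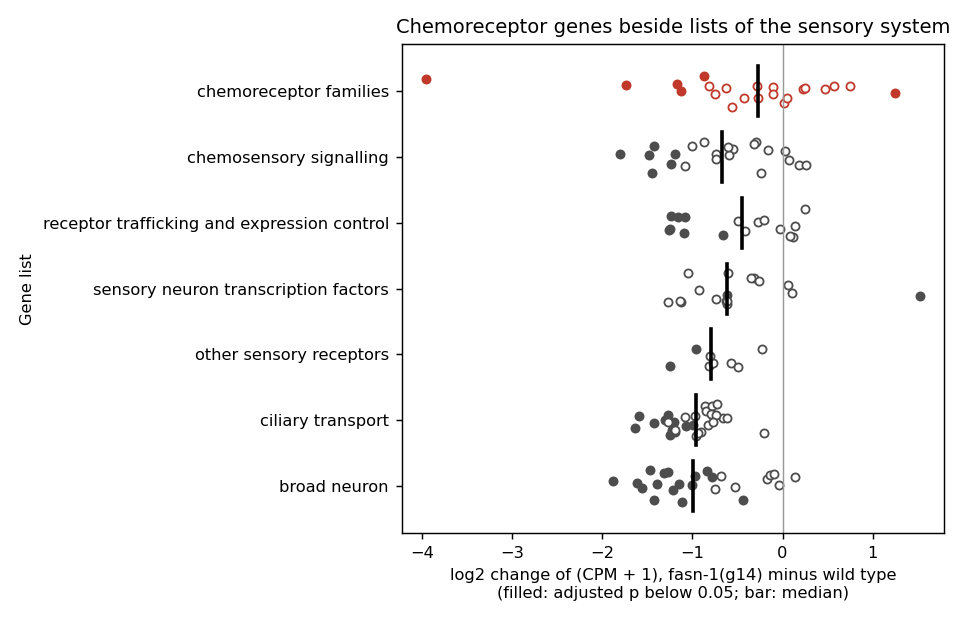
Log2 change of (CPM + 1), starved fasn-1(g14) minus starved wild type, for each tested gene of the chemoreceptor families and of 6 lists of the sensory system, with filled points for adjusted p below 0.05 and a bar at each median. The chemoreceptor median is -0.28 and the medians of the lists lie between -0.99 and -0.45, with srw-85 as the point farthest to the left.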

How the data were processed

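Per the labels, total RNA (1 µg) went into NEBNext Ultra II libraries, amplified for 8 PCR cycles. The authors deposited CPM scaled by normalization factors, treated here as a signal per gene because such columns need not share 1 total. The tools edgeR 3.28.1, HTSeq 0.12.4 and Bowtie2 2.3.3.1 are listed per the submitters' processing notes, in roles not given in the sources used here, and the same holds for the genome build. A further 8 library columns of other samples were not used. Whole reads were recovered by taking the smallest value above 0 in each library as 1 read, and 100% of values came out whole (tolerance 0.001 read).

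Of 13758 rows, 13747 matched 1 gene of the Ensembl release 115 annotation of WBcel235, 8 matched none and 3 were ambiguous. Coordinates are from that annotation, and exon length is the union of exons. No sequence tables were used here.

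limma 3.58.1 (R 4.3.3) was fitted with a mean-variance trend to log2(CPM + 1), group as the only term, two-sided. Fold changes on this scale understate the change of low genes. Recovered reads were also tested with edgeR 4.0.16 and DESeq2 1.42.0. The fit was tested on simulated data. Intervals of pooled reads are exact (SciPy 1.17.1). Errors are SD over 2 libraries or SE of the fit.

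The members and lists were chosen with earlier results of these data known. Named genes were called members whose groups did not overlap, the 10 highest per kb, members of a list of 43 studied receptors drawn from general knowledge, of which srb-16 and srw-85 had rows, up to 4 genes of each other list with the smallest p, and fasn-1. All other genes were named after their values were seen.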

Additional observations from a re-analysis of the deposited data

How the results depend on the processing

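The falls of srw-85 and srr-4 and the rise of sri-40 passed in all 13 alternatives run on them. The count of falls, 5, was 2 among members averaging 5 CPM or more, 3 with quantile normalization, 3 with DESeq2, 3 among members with no exon overlap and 2 to 8 with 1 library left out; rises ranged from 1 to 2 with 1 library left out. The median log2 change of the members was -0.50 with a pseudocount of 0.25 CPM, -0.087 with 5 CPM, -0.33 without normalization factors, -0.50 with edgeR, -0.49 with DESeq2, -0.35 among members with no exon overlap and -0.34 to -0.29 with 1 library left out. It turned to 0.23 over the 5 members with a mean of at least 5 CPM, a set of fewer genes, and to 0.0185 with quantile normalization, under which all tested genes had 0.0377; the cause was not tested. Falls over the 6 lists, 44, were 16 with a mean of at least 5 CPM, 28 with quantile normalization and 7 to 92 with 1 library left out, and rises were 1 to 4. The summed member level without sri-40, srr-4 and srw-85, chosen after seeing the data, was 46.4 and 40.7 CPM in the mutant and 50.1 and 50.4 CPM in wild type. The uncalled change of srh-237 turned to 0.26 with quantile normalization and ranged from -0.2828 to 0.072 with 1 library left out (0.072 without wild type replicate 3), and that of srv-7 to 0.20 with quantile normalization and ranged from -0.558 to 0.3451 with 1 library left out (0.3451 without mutant replicate 3); the cause was not tested.

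With the replicate number as a block 5 members fell and 1 rose, as without it, while falls over the 6 lists numbered 64, with 20 in ciliary transport and 7 among transcription factors, against 44, 11 and 2 without the block. The replicates share only a number (correlation of deviations -0.2137 across 12977 genes). With the pairing crossed, an alternative added after seeing the data, 6 members fell and 1 rose. Over all 12977 tested genes 2310 fell and 1197 rose with the pairing crossed, against 1386 and 572 in the main fit. Counts over all genes with the replicate number as a block are not given here, so the member and list counts with that block cannot be set against them. Depth limits most members: 1 read is worth 0.0628 to 0.0676 CPM against a median level of 1.06 CPM, so a difference that did not pass is not shown to be absent.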

Other observations

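Partners of the overlapping members can be set beside them. The gene nol-16, which shares 12 bp of exon with sre-23 on the opposite strand, was at 67.1 and 62.4 CPM in the mutant and 62.96 and 62.3 CPM in wild type, where sre-23 was at 0.270 and 0.130 CPM in the mutant and 1.88 and 0.944 CPM in wild type. The protease gene aex-5, whose span encloses str-245, was at 11.7 and 12.3 CPM in the mutant and 10.995 and 10.7 CPM in wild type. Beside srv-1, zak-1 on the opposite strand was at 4.93 and 6.67 CPM in the mutant and 3.77 and 7.29 CPM in wild type.

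The 1 rise in the lists of the sensory system was fozi-1, a zinc finger gene that acts in gustatory neuron and mesoderm fate, with 18.99 and 17.4 CPM in the mutant and 4.34 and 7.35 CPM in wild type (log2 change 1.52, SE 0.25; limma, adjusted p = 0.0147).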
